A study of Mus musculus with 8 samples.

Results

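The 34 genes described here are Trp53, which encodes the transcription factor p53, and genes that regulate p53 or are known as its transcriptional targets. They were taken by symbol from a list that was chosen with earlier results of these data known. Shares of the 34 set beside all genes are therefore descriptions. All 34 were found among the 54838 gene IDs of the count table. The sample titles call the cells ESC, but per the labels' protocols they were mouse iPSC, somatic cells returned to pluripotency, from 2 independent male clones used as biological replicates. All groups were kept in FBS and LIF with inhibitors of MEK and GSK3, on feeders that had been irradiated. The mitotic group received nocodazole (200 ng/ml for 6 h), which stops microtubules from growing and so holds dividing cells in mitosis, and was harvested by shake-off. Early G1 and late G1 cells passed through the same arrest and were taken 1 h and 3 h after removal of the drug and replating on gelatin. The asynchronous group cycled freely, without arrest. Each of the 4 groups had n = 2 libraries. No genotype or transgene was stated for any group. The mitotic and both G1 groups share passage to gelatin, nocodazole and shake-off, so against asynchronous cells the handling and the cell cycle state cannot be told apart. Against mitotic cells, removal of the drug and replating cannot be told apart from the cell cycle state of the G1 groups.

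p53 is kept low in most cells by Mdm2, a ubiquitin ligase that marks it for destruction, and by the related protein Mdm4. When DNA is damaged or cells are stressed p53 is stabilised and binds response elements near its targets, among them Mdm2 itself, the cell cycle inhibitor Cdkn1a and genes of cell death, DNA repair and metabolism. In human epithelial cell lines a prolonged mitosis is known to activate p53 through the proteins 53BP1 and USP28, and in mouse pluripotent cells p53 is known for a weak G1 arrest and for restraining self-renewal. Most of this control acts on the p53 protein, which was not measured here.

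A p53 response element is built of 2 decamers, each with a C and a G at set places, and reads the same on both strands. It was searched, with at most 1 mismatch that spares this C and G and at most 3 bases between the decamers, in RefSeq promoter windows that run from 250 bases before to 50 after an annotated start (GRCm38.p6). Of the 34 genes 27 had a window, and 4 of these 27 held a match (14.8%), against 68 of 27025 genes with a window (0.252%). The 4 matches are shown as sequences of single members. The list holds genes known as p53 targets, so the higher share of matches is not independent of how it was chosen. The response element is in capitals, each match has 1 mismatch and no base between the decamers, and each stretch is given on the strand of its gene.
Cdkn1a, chr17:29090729-29090975, plus strand, the upstream of 2 annotated starts: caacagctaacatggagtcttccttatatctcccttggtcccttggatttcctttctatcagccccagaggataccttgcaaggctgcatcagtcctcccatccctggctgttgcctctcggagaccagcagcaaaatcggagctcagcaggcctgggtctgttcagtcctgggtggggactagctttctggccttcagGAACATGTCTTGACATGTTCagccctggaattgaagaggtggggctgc
Ccng1, chr11:40755312-40755536, minus strand: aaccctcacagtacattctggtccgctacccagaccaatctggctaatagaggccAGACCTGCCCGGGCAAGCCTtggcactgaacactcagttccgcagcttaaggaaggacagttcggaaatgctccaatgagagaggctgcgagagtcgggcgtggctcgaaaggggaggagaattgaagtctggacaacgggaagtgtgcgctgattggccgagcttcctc
Gtse1, chr15:85859940-85859969, plus strand: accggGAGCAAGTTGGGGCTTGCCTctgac
Rps27l, chr9:66946291-66946320, plus strand: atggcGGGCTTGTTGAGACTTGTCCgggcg
The matches lie at -51 to -32 from the upstream annotated start of Cdkn1a and at -195 to -176 from the annotated start of Ccng1. They lie at -1 to 19 from the downstream start of Gtse1 and at -117 to -98 from the downstream start of Rps27l. The windows of the upstream starts of Gtse1 and Rps27l and of the downstream start of Cdkn1a held no match. A single decamer without mismatch was present in 13 of the 27 genes (48.1%), against 9.55% of all genes with a window. A match is a description of letters, and occupancy by p53 was not measured. The 4 genes did not share a pattern: between late G1 and mitotic cells Cdkn1a and Ccng1 rose, while Gtse1 and Rps27l had log2 changes of 0.03 and -0.10 and were not called.

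Total counts per library lay between 20410621 and 25615244, and a floor of 3 counts corresponded to 0.116 to 0.152 CPM (read counts scaled to the TMM-adjusted size of the library). All 34 genes passed the filter on low counts and belonged to the 19101 genes tested. Calls rest on edgeR's quasi-likelihood test over all 8 libraries, with an adjusted p (Benjamini-Hochberg) under 0.05, and p-values measured only the spread between 2 clones or samples of them. With 2 libraries a group, a gene that was not called is not shown to be unchanged. The replicates were unevenly spread: the biological coefficient of variation was 0.183 in mitotic, 0.0506 in early G1, 0.0417 in late G1 and 0.292 in asynchronous cells. None of the 15 markers of pluripotent cells fell short of 66.2 CPM in any library, and 9 were higher and 2 lower in mitotic, and 7 higher and 2 lower in late G1, than in asynchronous cells. Of 25 feeder fibroblast markers 24 were tested, and 21 were lower and 1 higher in mitotic than in asynchronous cells. Their summed level was 1630 to 1929 CPM in mitotic, 1783 to 1867 CPM in early G1, 1583 to 1710 CPM in late G1 and 4049 to 4827 CPM in asynchronous libraries. The highest single gene held 864 to 935, 891 to 996, 751 to 843 and 1227 to 2045 CPM of these. The median log2 change of the 24 was -4.27 in mitotic and -4.56 in late G1 against asynchronous cells. Col1a1, a defining collagen gene of fibroblasts, stood at 7.58 and 10.1 CPM in mitotic, 21.5 and 17.6 CPM in early G1, 7.61 and 5.95 CPM in late G1 and 509 and 554 CPM in asynchronous libraries. Macrophage markers summed to 347 and 364 CPM in mitotic, 263 and 255 CPM in early G1, 279 and 270 CPM in late G1 and 251 and 322 CPM in asynchronous libraries. Most of each sum was its highest single gene, at 217 and 249, 214 and 212, 231 and 216, and 159 and 231 CPM in the same order. The sums therefore say little of the other markers. The defining gene Adgre1 was at 4.00 CPM or less in every library. Lyz2, the lysozyme gene of macrophages, stood at 28.7 and 30.8 CPM in mitotic, 0.755 and 0.116 CPM in early G1, 0 and 0 CPM in late G1 and 9.43 and 14.6 CPM in asynchronous libraries. Of 16 macrophage markers tested, 8 were higher in mitotic than in asynchronous cells and 12 were lower in early G1 than in mitotic cells. Their median log2 change was 1.04 in the first of these comparisons and -4.53 in the second. In bulk libraries fewer cells of a type and less RNA per cell cannot be told apart.

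Across the 4 states 23 of the 34 genes differed (edgeR F test), beside 48.5% of all genes tested. In 16 of the 34, beside 8.61% of all genes tested, both late G1 libraries stood above both early G1 ones and these above both mitotic ones. The 16 were Apaf1, Ccng1, Cdkn1a, Ddit4l, Eda2r, Ercc5, Mdm2, Pidd1, Plk2, Polk, Ppm1d, Rchy1, Slc19a2, Susd6, Tnfrsf10b and Trp53inp1. Plk3 alone had the opposite order, beside 8.29% of all genes. These are orders of levels: in the fit of all 8 libraries none of the 16 was called in late G1 against early G1, and of the 16 only Cdkn1a, Ddit4l, Pidd1 and Plk2 were called in early G1 against mitotic cells. Trp53 itself was high at the arrest and in G1. Per kilobase of exon, Gtse1 had the highest mean level of the 34 in mitotic, early G1 and late G1 cells (139, 132 and 142 RPKM) and Rps27l in asynchronous cells (118 RPKM), whereas Fas was last in the first 3 states with 0.652, 0.379 and 0.796 RPKM.

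**Figure D1:**
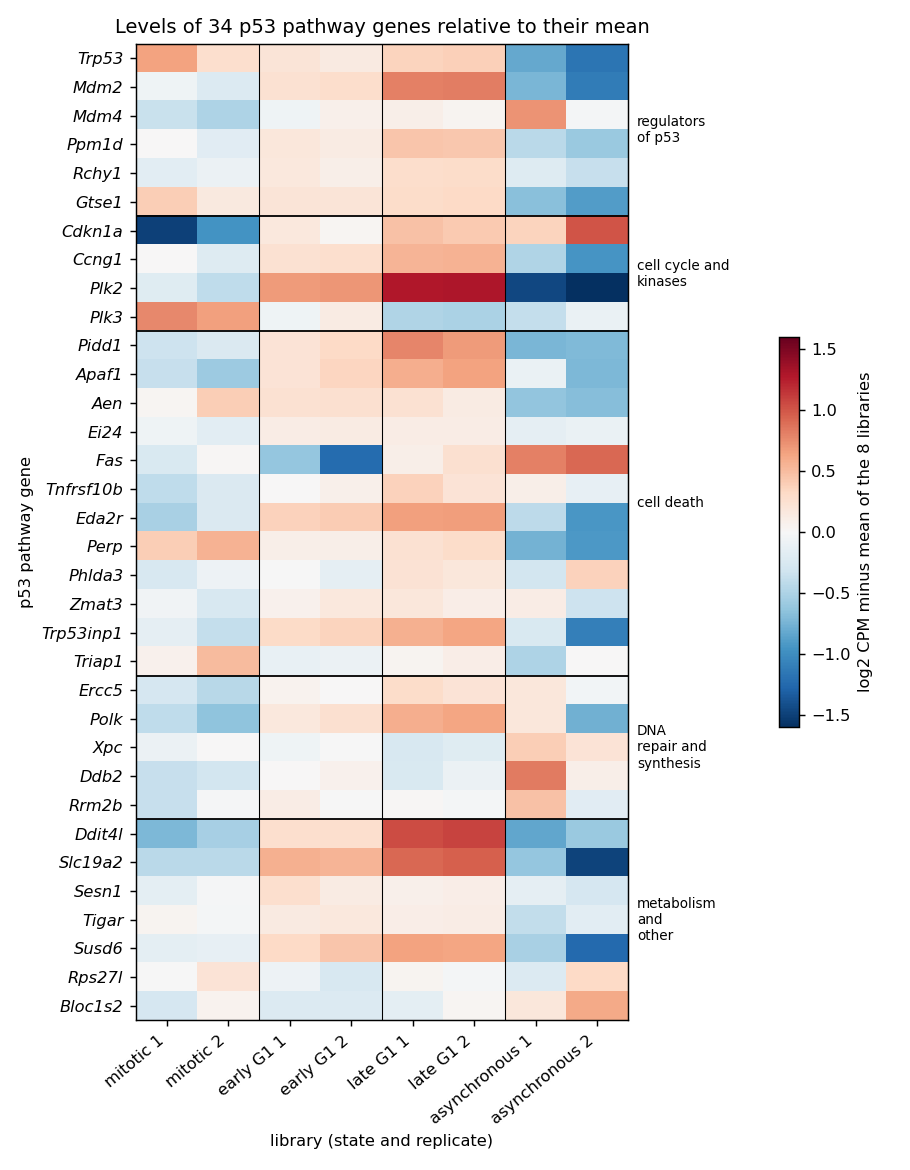
Log2 CPM of each of the 34 genes (rows, grouped by role) in each of the 8 libraries (columns), as the difference from the mean of the gene over the libraries. Plk2, Mdm2, Ddit4l and Slc19a2 are darkest red in both late G1 libraries, Cdkn1a is darkest blue in the mitotic libraries, and the asynchronous replicates differ for genes such as Mdm4, Slc19a2 and Susd6.

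Among the 6 genes that make up or regulate p53, 4 were higher and 1 lower in mitotic than in asynchronous cells, beside 18.3% and 22.4% of all genes tested, and 5 were higher in late G1 than in asynchronous cells, beside 22.7%. Trp53 (ENSMUSG00000059552, chromosome 11, 69580359 to 69591873, GRCm38) had 582 and 447 CPM in mitotic, 430.2 and 411 CPM in early G1, 476 and 487 CPM in late G1 and 211 and 165 CPM in asynchronous libraries. All 6 libraries from arrested and released cells lay above both asynchronous ones. Trp53 rose 2.73-fold in mitotic against asynchronous cells (log2 1.45, SE 0.17, adjusted p = 5.60e-04) and 2.56-fold in late G1 against asynchronous cells (log2 1.35, SE 0.17, adjusted p = 5.42e-04). Its early G1 libraries lay below both mitotic ones, and the log2 change of -0.29 was not called (SE 0.16, adjusted p = 0.327). Reads of Trp53 may be shared with its processed pseudogene Trp53-ps, which stood at 46.8 and 36.0 CPM in mitotic and 14.2 and 10.0 CPM in asynchronous libraries.

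Mdm2 (ENSMUSG00000020184, chromosome 10, 117688875 to 117710758) had 275 and 249 CPM in mitotic, 342 and 351 CPM in early G1, 508 and 509.9 CPM in late G1 and 174 and 133 CPM in asynchronous libraries. No 2 states overlapped, and the order ran from asynchronous through mitotic and early G1 to late G1. Mdm2 rose 1.71-fold in mitotic against asynchronous cells (log2 0.77, SE 0.15, adjusted p = 0.00444), 1.94-fold in late G1 against mitotic cells (log2 0.96, SE 0.15, adjusted p = 0.00948) and 3.32-fold in late G1 against asynchronous cells (log2 1.73, SE 0.15, adjusted p = 1.38e-04). Early G1 against mitotic cells gave a log2 change of 0.40 that was not called (SE 0.14, adjusted p = 0.150). The rise against mitotic cells lost its call on leaving out any of the 4 libraries compared (adjusted p up to 0.102).

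Mdm4, the partner of Mdm2 that holds down the activity of p53, took a different course. It had 208 and 189 CPM in mitotic, 252 and 279.9 CPM in early G1, 284 and 275 CPM in late G1 and 438 and 261 CPM in asynchronous libraries. The asynchronous replicates differed, and the lower of them lay within the G1 range. Mdm4 fell in mitotic against asynchronous cells by 0.82 on the log2 scale (SE 0.22, adjusted p = 0.0186), a call that was lost on leaving out either mitotic library (adjusted p up to 0.109). Late G1 against asynchronous cells gave -0.32, which was not called (SE 0.22, adjusted p = 0.243).

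The other 3 genes of this class were higher in late G1 than in asynchronous cells. Gtse1, which encodes a microtubule-bound protein that in human cells carries p53 out of the nucleus, had 414 and 351 CPM in mitotic, 364 and 362 CPM in early G1, 386 and 392 CPM in late G1 and 198 and 170.3 CPM in asynchronous libraries. It rose 2.08-fold in mitotic (log2 1.06, SE 0.13, adjusted p = 7.33e-04) and 2.12-fold in late G1 cells (log2 1.08, SE 0.13, adjusted p = 5.04e-04), both against asynchronous cells, and the mitotic and G1 ranges overlapped. Ppm1d, a phosphatase gene that turns p53 signalling off, averaged 43.3 ± 4.20 CPM in mitotic, 51.2 ± 1.10 CPM in early G1, 62.1 ± 0.523 CPM in late G1 and 32.3 ± 2.57 CPM in asynchronous cells (SD, n = 2 each). Ppm1d was called higher in mitotic and in late G1 than in asynchronous cells and in late G1 than in mitotic cells (adjusted p = 0.0348, 9.62e-04 and 0.0456). The first of these calls was lost in 8 and the last in 6 of the 16 other settings tried. Rchy1, a ubiquitin ligase gene, rose 1.48-fold in late G1 against asynchronous cells (66.1 ± 0.439 against 44.7 ± 3.52 CPM, adjusted p = 0.00638). Of its exon bases 18% overlap Thap6 on the other strand, so its value is uncertain.

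**Figure D2:**
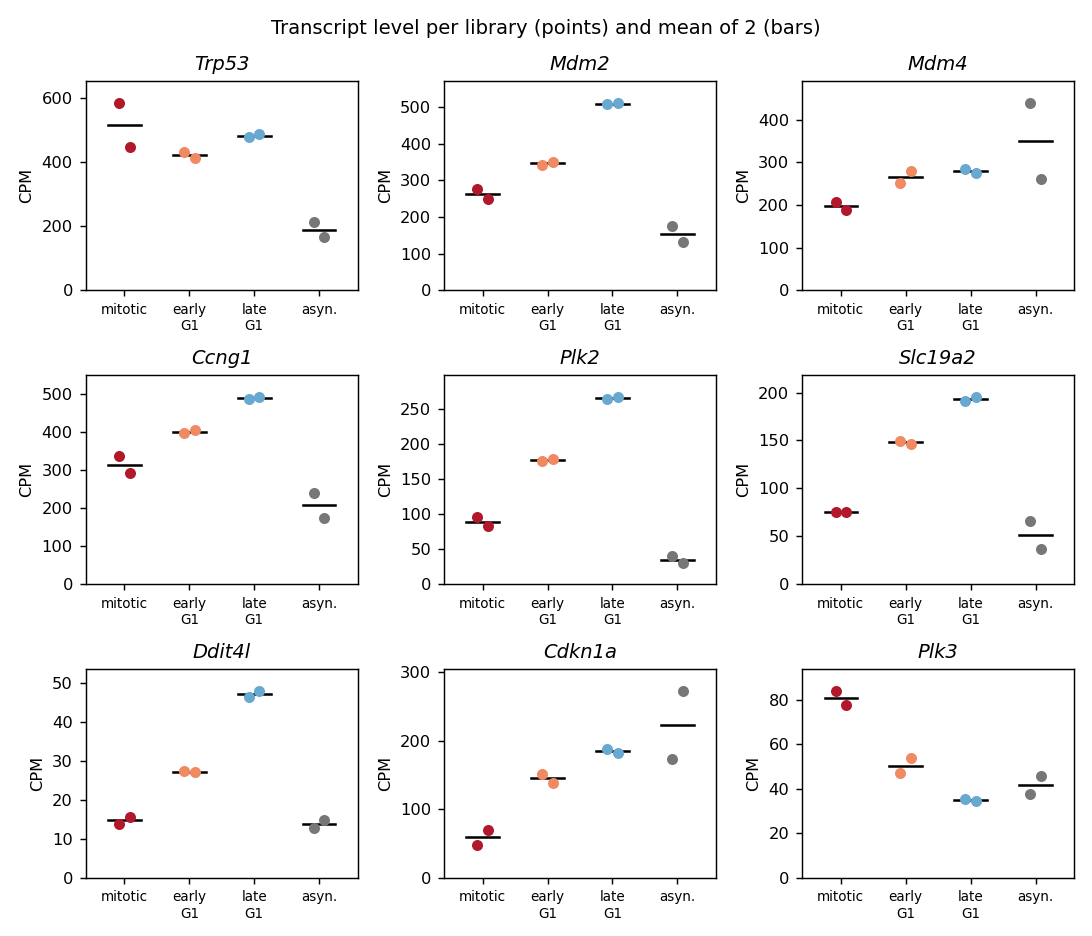
Levels in CPM (vertical axes, each starting at 0) of 9 genes in mitotic, early G1, late G1 and asynchronous libraries; points are libraries and bars the mean of 2. Mdm2, Ccng1, Plk2, Slc19a2 and Ddit4l stand higher at each time after the arrest and highest in late G1, Cdkn1a stands at 187 and 182 CPM in late G1 beside 173 and 273 CPM in asynchronous cells, and Plk3 at 35.3 and 34.7 CPM in late G1.

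All 4 genes of the cell cycle and kinase class differed between states, beside 48.5% of all genes tested. Cdkn1a (ENSMUSG00000023067, chromosome 17, 29090976 to 29100727), whose product p21 inhibits cyclin-dependent kinases, had 47.9 and 70.0 CPM in mitotic, 152 and 138 CPM in early G1, 187 and 182 CPM in late G1 and 173 and 273 CPM in asynchronous libraries. The mitotic libraries were the lowest, and the late G1 libraries lay between the 2 asynchronous ones. Cdkn1a fell in mitotic against asynchronous cells by 1.92 on the log2 scale (SE 0.24, adjusted p = 8.34e-04). It then rose 2.46-fold in early G1 (log2 1.30, SE 0.24, adjusted p = 0.0271) and 3.13-fold in late G1 (log2 1.65, SE 0.24, adjusted p = 0.00864), both against mitotic cells. Late G1 against asynchronous cells gave -0.27 (SE 0.24, adjusted p = 0.366), and the groups overlapped. Of the exon bases of Cdkn1a, 7.7% overlap an unnamed transcript on the other strand.

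Plk2 (ENSMUSG00000021701, chromosome 13, 110395046 to 110400844), a polo-like kinase gene active in G1, had 95.7 and 82.4 CPM in mitotic, 176 and 179 CPM in early G1, 265 and 267 CPM in late G1 and 39.9 and 29.3 CPM in asynchronous libraries. Its states did not overlap, and it was the member with the largest change of the 34 in any comparison. It rose 7.69-fold in late G1 against asynchronous cells (log2 2.94, SE 0.17, adjusted p = 4.02e-05). Against mitotic cells it rose 1.99-fold in early G1 (log2 1.00, SE 0.16, adjusted p = 0.0164) and 2.99-fold in late G1 (log2 1.58, SE 0.16, adjusted p = 0.00264), and mitotic cells stood 2.57-fold above asynchronous cells (log2 1.36, SE 0.16, adjusted p = 6.41e-04).

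Plk3, a second polo-like kinase gene, had 83.9 and 77.5 CPM in mitotic, 46.9 and 53.7 CPM in early G1, 35.3 and 34.7 CPM in late G1 and 37.7 and 45.5 CPM in asynchronous libraries. No other of the 34 was called lower in either G1 state against mitotic cells. Plk3 rose 1.94-fold in mitotic against asynchronous cells (log2 0.96, SE 0.14, adjusted p = 0.00171). It fell by 0.68 in early G1 (SE 0.14, adjusted p = 0.0394) and by 1.21 in late G1 (SE 0.14, adjusted p = 0.00426) on the log2 scale, both against mitotic cells. Ccng1, which encodes cyclin G1, a p53 target that acts with a phosphatase on Mdm2, had 337 and 292 CPM in mitotic, 398 and 406 CPM in early G1, 489 and 493 CPM in late G1 and 240.3 and 175 CPM in asynchronous libraries. It rose 1.51-fold in mitotic (adjusted p = 0.0194) and 2.36-fold in late G1 (log2 1.24, SE 0.16, adjusted p = 7.16e-04), both against asynchronous cells, and 1.56-fold in late G1 against mitotic cells (log2 0.64, SE 0.16, adjusted p = 0.0436). The last of these calls was lost on leaving out any mitotic or G1 library (adjusted p up to 0.239).

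Of the 12 cell death genes, 8 differed between states, beside 48.5% of all genes tested. In late G1 against asynchronous cells 6 were higher and 0 lower, beside 22.7% and 26%. Pidd1, a gene for a death-domain protein that assembles the PIDDosome, had 58.1 and 62.2 CPM in mitotic, 85.4 and 91.5 CPM in early G1, 125 and 118 CPM in late G1 and 44.3 and 45.1 CPM in asynchronous libraries. Its level was higher at each time after the arrest, and no other cell death gene was called in early G1 against mitotic cells (1.47-fold, log2 0.56, SE 0.12, adjusted p = 0.0385). In late G1 it rose 2.02-fold against mitotic (log2 1.02, SE 0.12, adjusted p = 0.00368) and 2.72-fold against asynchronous cells (log2 1.44, SE 0.12, adjusted p = 1.16e-04).

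Apaf1, the scaffold gene of the apoptosome, had 54.7 and 47.2 CPM in mitotic, 82.0 and 89.9 CPM in early G1, 105 and 111 CPM in late G1 and 65.5 and 43.0 CPM in asynchronous libraries. Mitotic and asynchronous libraries overlapped, and both late G1 libraries lay above all others. Apaf1 rose 2.12-fold in late G1 against mitotic cells (log2 1.08, SE 0.20, adjusted p = 0.0160) and 1.99-fold against asynchronous cells (log2 0.99, SE 0.20, adjusted p = 0.00427). Eda2r, a receptor gene of the tumour necrosis factor receptor family, had 66.1 and 80.5 CPM in mitotic, 123 and 125 CPM in early G1, 150.0 and 151 CPM in late G1 and 71.0 and 49.7 CPM in asynchronous libraries. Its mitotic and asynchronous libraries overlapped too, and it rose 2.05-fold in late G1 against mitotic (log2 1.04, SE 0.18, adjusted p = 0.0136) and 2.49-fold against asynchronous cells (log2 1.32, SE 0.18, adjusted p = 8.75e-04). The calls of Apaf1 and Eda2r against mitotic cells were lost on leaving out any of the 4 libraries compared (adjusted p up to 0.138 and 0.127).

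Trp53inp1, which encodes a nuclear protein that promotes p53-dependent cell death and autophagy, had 276 and 235 CPM in mitotic, 376 and 391 CPM in early G1, 452 and 471 CPM in late G1 and 258 and 143 CPM in asynchronous libraries. It rose 2.30-fold in late G1 against asynchronous cells (log2 1.20, SE 0.24, adjusted p = 0.00468), while late G1 against mitotic cells gave 0.85 and was not called (SE 0.24, adjusted p = 0.0615). Perp, a membrane protein gene of cell adhesion and apoptosis, was high at the arrest instead, with 54.9 and 61.6 CPM in mitotic, 44.9 and 44.7 CPM in early G1, 49.7 and 51.3 CPM in late G1 and 24.8 and 22.1 CPM in asynchronous libraries. It rose 2.48-fold in mitotic (log2 1.31, SE 0.13, adjusted p = 3.20e-04) and 2.15-fold in late G1 cells (log2 1.11, SE 0.13, adjusted p = 4.80e-04), both against asynchronous cells. Aen, a nuclease gene of apoptosis, had a like profile, at 118 ± 20.2 CPM in mitotic, 119.8 ± 0.900 CPM in early G1, 115 ± 6.29 CPM in late G1 and 63.8 ± 1.24 CPM in asynchronous cells (SD, n = 2 each), and rose in mitotic and late G1 against asynchronous cells (adjusted p = 0.00222 and 0.00200).

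The death receptor genes Fas and Tnfrsf10b were low or little changed. Fas had 1.22 and 1.47 CPM in mitotic, 0.944 and 0.618 CPM in early G1, 1.55 and 1.73 CPM in late G1 and 2.55 and 2.74 CPM in asynchronous libraries, and it fell in mitotic against asynchronous cells by 0.97 on the log2 scale (SE 0.29, adjusted p = 0.0303). Feeder markers were higher in the same asynchronous libraries, as given above, and their part in the result was not tested. Tnfrsf10b was 1.53-fold higher in late G1 than in mitotic cells (70.5 ± 5.06 against 46.2 ± 3.77 CPM, adjusted p = 0.0322), a call lost in 6 of the 16 other settings tried. Ei24, Phlda3, Zmat3 and Triap1 were called in none of the 5 comparisons, with log2 changes between -0.41 and 0.53.

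Of the 5 genes of DNA repair and synthesis, 3 differed between states, a share near the 48.5% of all genes tested. Polk, which encodes the translesion polymerase kappa, had 22.6 and 19.2 CPM in mitotic, 33.7 and 36.0 CPM in early G1, 45.0 and 46.6 CPM in late G1 and 33.9 and 17.6 CPM in asynchronous libraries. The asynchronous replicates spanned the mitotic ones, and both late G1 libraries were the highest. Polk rose 2.19-fold in late G1 against mitotic (log2 1.13, SE 0.27, adjusted p = 0.0384) and 1.77-fold against asynchronous cells (log2 0.83, SE 0.27, adjusted p = 0.0333), and both calls were lost on leaving out any library of mitotic or G1 cells (adjusted p up to 0.209 and 0.129). Ercc5, a nuclease gene of nucleotide excision repair, was lower in mitotic than in asynchronous cells (38.5 ± 3.23 against 51.8 ± 5.74 CPM, adjusted p = 0.0354) and higher in late G1 than in mitotic cells (58.7 ± 1.96 against 38.5 ± 3.23 CPM, adjusted p = 0.0310). The first of these Ercc5 calls was lost in 10 and the second in 6 of the 16 other settings tried.

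Ddb2 and Xpc, which recognise damaged bases in the same repair pathway, were the 2 members lower in late G1 than in asynchronous cells. Xpc averaged 34.3 ± 1.14 CPM in late G1 and 49.7 ± 4.33 CPM in asynchronous cells (SD, n = 2 each, adjusted p = 0.0108). Ddb2 averaged 7.88 ± 0.582 CPM in late G1 and 12.6 ± 4.51 CPM in asynchronous cells (adjusted p = 0.0497), lost its call without any of 7 of the 8 libraries (adjusted p up to 0.283), and shares 23.8% of its exon bases with Acp2 on the other strand. Rrm2b, the p53-inducible subunit gene of ribonucleotide reductase, stood between 6.82 and 12.2 CPM in all libraries and was called in no comparison.

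Among the 7 genes of metabolism and other roles, 3 differed between states, beside 48.5% of all genes tested, and 4 were higher and 0 lower in late G1 than in asynchronous cells, beside 22.7% and 26%. Ddit4l, whose relatives restrain the growth regulator mTORC1, had 13.8 and 15.7 CPM in mitotic, 27.4 and 27.2 CPM in early G1, 46.6 and 48.0 CPM in late G1 and 12.8 and 14.9 CPM in asynchronous libraries. Mitotic and asynchronous libraries overlapped (log2 0.09, SE 0.15, adjusted p = 0.647), and each time after release lay above the one before. Ddit4l rose 1.85-fold in early G1 (log2 0.89, SE 0.15, adjusted p = 0.0180) and 3.21-fold in late G1 (log2 1.68, SE 0.15, adjusted p = 0.00211), both against mitotic cells, and 3.42-fold in late G1 against asynchronous cells (log2 1.77, SE 0.15, adjusted p = 1.26e-04).

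Slc19a2, a thiamine transporter gene, had 74.7 CPM in both mitotic libraries, 149 and 147 CPM in early G1, 191 and 195 CPM in late G1 and 65.7 and 36.0 CPM in asynchronous libraries. It rose 2.59-fold in late G1 against mitotic (log2 1.37, SE 0.24, adjusted p = 0.0136) and 3.79-fold against asynchronous cells (log2 1.92, SE 0.24, adjusted p = 5.98e-04). The call of Slc19a2 against mitotic cells was lost on leaving out any of the 4 libraries compared. In early G1 its log2 change of 0.99 against mitotic cells was not called (SE 0.24, adjusted p = 0.0557), although the libraries did not overlap. Susd6, a membrane protein gene, had 100.2 and 102 CPM in mitotic, 139 and 151 CPM in early G1, 174 and 173 CPM in late G1 and 78.2 and 47.2 CPM in asynchronous libraries. It rose 1.61-fold in mitotic (log2 0.69, SE 0.21, adjusted p = 0.0303) and 2.77-fold in late G1 cells (log2 1.47, SE 0.21, adjusted p = 0.00108), both against asynchronous cells. The call in mitotic cells was lost in 8 of the 16 other settings tried.

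Tigar, which encodes an enzyme that lowers glycolytic flux, was 1.30-fold higher in late G1 than in asynchronous cells (117 ± 0.925 against 89.4 ± 9.86 CPM, adjusted p = 0.0302). Sesn1, a sestrin gene, Rps27l, a ribosomal protein paralogue, and Bloc1s2, a subunit gene of lysosome-related complexes, were called in no comparison, with log2 changes between -0.51 and 0.30. Bloc1s2 stood at 19.5 to 36.0 CPM and its processed pseudogene Bloc1s2-ps at 24.3 to 34.1 CPM, so reads may have been split between them.

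**Figure D3:**
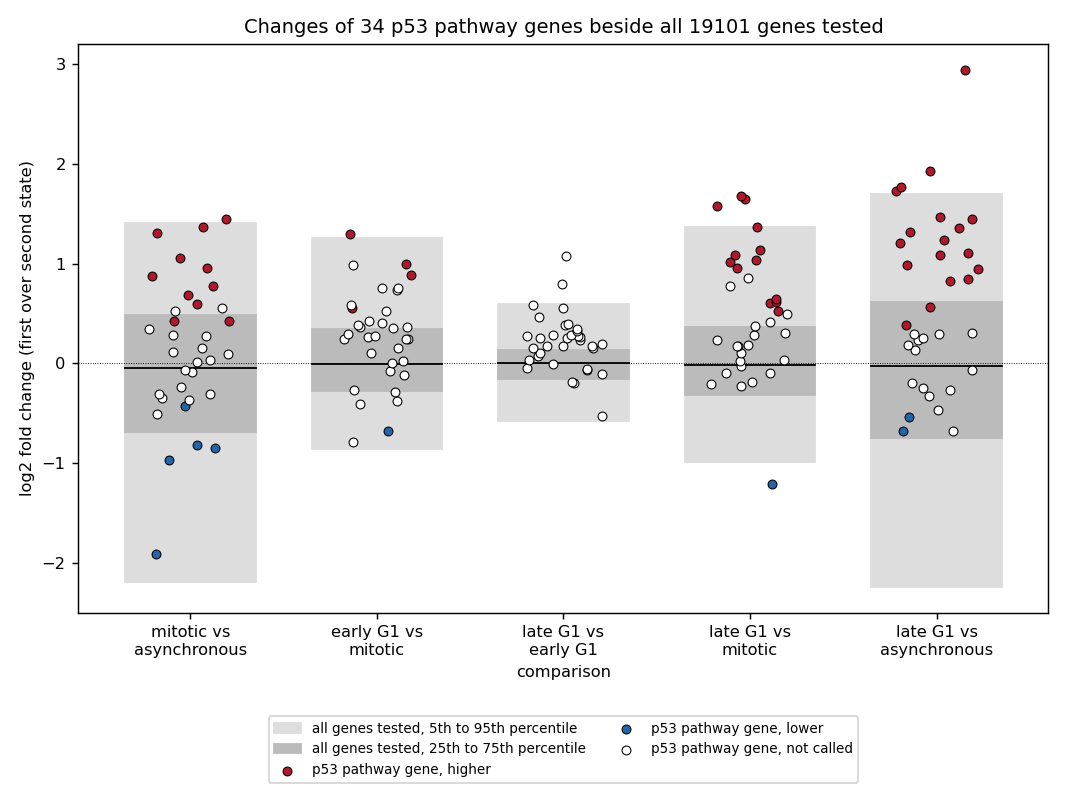
Log2 fold changes of the 34 genes (points, coloured where called) in the 5 comparisons, beside the 5th to 95th and 25th to 75th percentiles of all 19101 genes tested (grey) and their median (black line). The points lie mostly above the median of all genes in the comparisons of G1 with mitotic cells and of late G1 with asynchronous cells, and the widest single change is that of Plk2 at 2.94.

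The comparison of mitotic with asynchronous cells asked what the arrest looked like against cycling cells, and it split the members. Of the 34, 11 were higher, beside 18.3% of all genes tested, and 5 were lower, beside 22.4%. Those higher were Trp53, Plk2, Perp, Gtse1, Plk3, Aen, Mdm2, Susd6, Ccng1, Pidd1 and Ppm1d, and those lower were Cdkn1a, Fas, Ddb2, Mdm4 and Ercc5. The median log2 change of the 34 was 0.13, against -0.049 over all genes tested, and both mitotic libraries lay above both asynchronous ones for 15 of the 34 and below them for 8, beside 30.9% and 34.4% of all genes. Of the 16 calls 8 held under each of the 16 other settings tried, those of Aen, Cdkn1a, Gtse1, Mdm2, Perp, Plk2, Plk3 and Trp53. Leaving out any mitotic or G1 library left 1 to 3 members lower, beside 13.3% to 17.3% of all genes, and leaving out asynchronous replicate 2 gave 9, beside 23.8%. With these 2 groups fitted alone 7 were higher and 1 lower, beside 8.55% and 12.7% of the genes tested there. Feeder markers moved with the asynchronous group, and their part in these results was not tested.

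Early G1 against mitotic cells asked what changed in the first hour after release. Cdkn1a, Plk2, Ddit4l and Pidd1 were higher, 4 of 34 beside 3.21% of all genes tested, and Plk3 was lower, 1 of 34 beside 1.42%. Both early G1 libraries stood above both mitotic ones for 23 of the 34 genes and below them for 6, beside 30.9% of all genes tested in each case, and the median log2 change was 0.28, against -0.011 over all genes. None of the 5 calls survived leaving out any single mitotic, early G1 or late G1 library, with 42 to 228 genes called over the whole table in those fits. Without either asynchronous library, whose replicates were the most spread, 16 members were called higher and 2 lower, while 12% to 12.2% of all genes were called higher and 10.2% to 10.3% lower in those fits. In the fit of these 2 groups alone 14 were higher and 1 lower, beside 9.47% and 5.86% of the genes tested there. Macrophage markers were lower in early G1 than in mitotic libraries, as given above, and their part in these results was not tested.

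Late G1 against early G1 asked what changed between 1 h and 3 h after release, and no gene of the whole table was called in the edgeR fit of all 8 libraries, so the members had 0 calls beside 0% of all genes. At an unadjusted p under 0.05 there were 6 members and 724 genes of the table, and DESeq2 called 1 member, Ddit4l. Both late G1 libraries stood above both early G1 ones for 24 of the 34 genes, beside 24.4% of all genes tested, and below them for 6, beside 25.9%. The median log2 change was 0.21, against -0.00051 over all genes tested. In the fit of these 2 groups alone, in which the closely matched G1 replicates set the spread, 18 members were higher, beside 3.5% of the 17696 genes tested there, and 1 was lower, beside 4.94%. In that fit Ddit4l rose 1.73-fold (log2 0.79, SE 0.076, adjusted p = 4.57e-09), Plk2 rose as well (log2 0.59, SE 0.052, adjusted p = 1.21e-09) and so did Mdm2 (1.47-fold, log2 0.56, SE 0.050, adjusted p = 1.46e-09). Trp53 rose 1.15-fold in the same fit (adjusted p = 0.0103), and Plk3 fell by 0.53 on the log2 scale (SE 0.077, adjusted p = 1.34e-05).

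**Figure D4:**
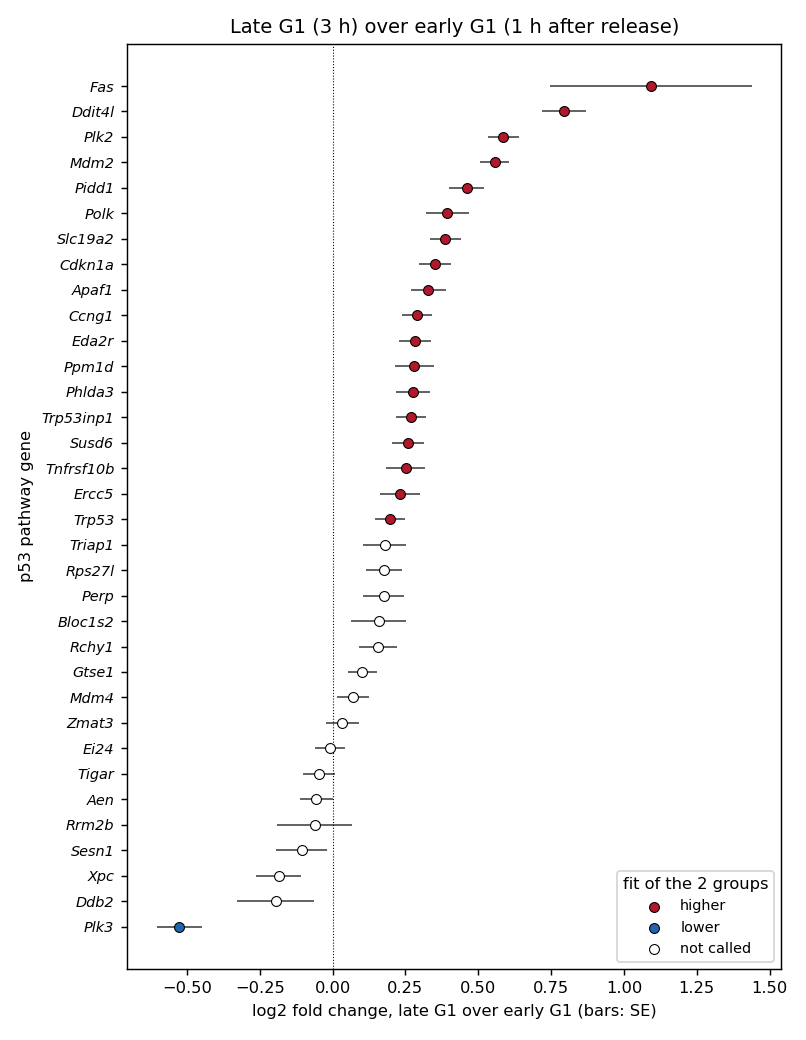
Log2 fold change of each of the 34 genes in late G1 over early G1 (horizontal axis, points with SE as bars) in the edgeR fit of these 2 groups alone. The 18 genes called higher run from Trp53 at 0.20 to Fas at 1.09, with Fas at levels under 2 CPM, and Plk3 at -0.53 is the 1 called lower.

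Late G1 against mitotic cells spanned the whole course after release, and 13 of the 34 genes were higher, beside 5.43% of all genes tested. They were Ddit4l, Cdkn1a, Plk2, Slc19a2, Polk, Apaf1, Eda2r, Pidd1, Mdm2, Ccng1, Ercc5, Tnfrsf10b and Ppm1d. Plk3 was lower, 1 of 34 beside 4.04%. The median log2 change was 0.39, against -0.014 over all genes tested, and both late G1 libraries lay above both mitotic ones for 24 of the 34 and below them for 3, beside 32% and 32.3% of all genes. With these 2 groups fitted alone 19 were higher and 1 lower, beside 12.8% and 9.45% of the genes tested there. Calls of Ddit4l and Plk2 held under each of the 16 other settings. The number higher was 2 without either late G1 library, 3 and 4 without mitotic replicate 1 and 2, 8 without either early G1 library and 20 without either asynchronous library. The share of all genes called higher moved with it, at 0.28% to 0.387% without a late G1 library, 0.548% and 1.2% without mitotic replicate 1 and 2, 2.09% to 2.14% without an early G1 library and 14.2% to 14.3% without an asynchronous one. Of 16 macrophage markers 11 were lower and 0 higher in late G1 than in mitotic cells, and their part in these results was not tested.

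Late G1 against asynchronous cells asked what still differed from cycling cells 3 h after release. Of the 34 genes 18 were higher, beside 22.7% of all genes tested, and 2 were lower, beside 26%. The 18 were Plk2, Slc19a2, Ddit4l, Mdm2, Susd6, Pidd1, Trp53, Eda2r, Ccng1, Trp53inp1, Perp, Gtse1, Apaf1, Ppm1d, Aen, Polk, Rchy1 and Tigar. The median log2 change was 0.47, against -0.029 over all genes tested, and both late G1 libraries lay above both asynchronous ones for 23 of the 34 and below them for 5, beside 36.8% and 38.1% of all genes. With these 2 groups fitted alone 16 were higher and 0 lower, beside 15.7% and 19.8% of the genes tested there. Of the 20 calls 15 held under each of the 16 other settings, and those of Ddb2, Polk, Tigar, Xpc and Rchy1 did not. The number higher ran from 15 without either late G1 library, beside 11.7% to 11.8% of all genes, to 22 without asynchronous replicate 1, beside 28.4%. The same asynchronous libraries enter this comparison and that of mitotic cells, and the same late G1 libraries enter it and the 2 preceding ones, so the counts are not independent. Feeder markers were higher in asynchronous libraries here as well (21 of 24 lower in late G1), and their part in these counts was not tested.

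A second list held 38 further p53 targets, of which 36 were tested. In early G1 against mitotic cells 2 of the 36 were higher, a share near the 3.21% of all genes tested, and 0 were lower, beside 1.42%. Lif, the cytokine gene, stood at 18.3 and 17.5 CPM in early G1 against 6.53 and 7.59 CPM in mitotic libraries (2.53-fold, log2 1.34, SE 0.20, adjusted p = 0.0117). Pmaip1, which encodes the cell death protein Noxa, stood at 107 and 105 CPM in early G1 against 47.2 and 54.5 CPM in mitotic libraries (2.09-fold, log2 1.06, SE 0.13, adjusted p = 0.00698). In late G1 against early G1 0 of 36 were called in edgeR, beside 0% of all genes. At an unadjusted p under 0.05 there were 6, beside 724 of the 19101 genes tested. In late G1 against mitotic cells 9 were higher and 0 lower, beside 5.43% and 4.04% of all genes tested. The 5 largest were Lif (3.22-fold), Pmaip1 (2.43-fold), the stress cytokine gene Gdf15 (2.30-fold), the peptide transporter gene Tap1 (2.20-fold) and Btg2, an antiproliferative gene (1.69-fold, 196 ± 3.11 against 116 ± 1.39 CPM).

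Against asynchronous cells the second list had calls in both directions. All genes tested had 18.3% higher and 22.4% lower in mitotic cells, and 22.7% higher and 26% lower in late G1 cells. In mitotic cells 12 of the 36 were higher, led by Epha2 (3.18-fold), Kitl (2.95-fold), Ckap2, Dgka and Steap3, and 11 lower, led by Gdf15 (log2 -2.20), Ephx1 (-2.01), Dcxr (-1.21), Tnfrsf18 (-1.20) and Tap1 (-1.05). In late G1 17 were higher, led by Kitl (3.73-fold), Dram1, Btg2 (2.76-fold), Rap2b (2.75-fold) and Trim32 (2.51-fold), and 6 lower, led by Ephx1 (log2 -2.02), Dcxr (-1.68), Cgref1 (-1.45), Cd82 (-1.32) and Gdf15. Dram1, a lysosomal gene of autophagy, did so at 1.69 and 2.16 CPM in late G1 against 0.756 and 0.608 CPM in asynchronous libraries. Kitl was low too, at 4.34 and 5.31 CPM in mitotic, 6.15 and 6.05 CPM in late G1 and 2.15 and 1.06 CPM in asynchronous libraries. Tnfrsf18 stood at 0.884 and 1.25 CPM in mitotic and 3.34 and 1.52 CPM in asynchronous libraries. The median log2 change of the 36 was 0.04 in mitotic and 0.26 in late G1 cells, both against asynchronous cells, where all genes tested had -0.049 and -0.029. Most feeder markers were higher in the same asynchronous libraries, and their part in the calls of this list was not tested.

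Of 36 upstream regulators of p53, 35 were tested, and their counts against asynchronous cells are to be read beside the same shares of all genes, 18.3% and 22.4% in mitotic and 22.7% and 26% in late G1 cells. None was called in early G1 or late G1 against mitotic cells or in late G1 against early G1 by edgeR. At an unadjusted p under 0.05 there were 10, 10 and 1, beside 4324, 5078 and 724 of the 19101 genes tested. In mitotic against asynchronous cells 11 were higher, led by the kinase gene Lats2 (2.71-fold), the deacetylase gene Sirt1 (2.68-fold), the kinase gene Hipk2 (2.14-fold), Daxx and the deubiquitinase gene Usp10, and 5 lower: Ppp1r13l (log2 -1.15), Cdkn2a (-1.06), the damage kinase gene Atr, Rpl11 (-0.91) and Prkdc (-0.67). Cdkn2a, whose Arf product inhibits Mdm2, had 19.2 and 19.8 CPM in mitotic and 34.4 and 47.2 CPM in asynchronous libraries. Rpl11 was counted at only 16.8 and 18.5 CPM in mitotic and 27.2 and 39.3 CPM in asynchronous libraries. Most feeder markers were higher in the asynchronous libraries, and their part in the calls of these regulators was not tested. In late G1 against asynchronous cells 15 were higher, led by Lats2 (3.44-fold), Sirt1 (2.86-fold), the damage kinase gene Atm (2.24-fold), Ep300 and Usp7, and 5 lower, namely Cdkn2a (log2 -1.53), Ppp1r13l (-1.07), Atr (-0.81), Prkdc (-0.77) and Cop1 (-0.47). Trp53bp1 and Usp28, named here for the background on mitotic timing and with their values known, were not called in mitotic against asynchronous cells. Trp53bp1 stood at 73.9 and 60.5 CPM in mitotic and 68.8 and 47.7 CPM in asynchronous libraries (log2 0.20, SE 0.19, adjusted p = 0.407), and Usp28 at 147 and 113 CPM in mitotic and 236 and 139 CPM in asynchronous libraries (log2 -0.53, SE 0.23, adjusted p = 0.102).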

How the data were processed

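The values deposited for the 8 libraries are counts, whole numbers of reads assigned to each Ensembl gene and not normalised. Libraries came from a strand-marking poly(A) kit and were read from one end for 50 bases, as the labels' protocols state. The RNA extraction described there names asynchronous cells only. TopHat2, SAMtools, HTSeq and mm10 are named per the submitters' processing notes, and neither the strand setting nor the annotation is stated. Genes that overlap others on the opposite strand or have pseudogenes are therefore uncertain. IDs were matched to symbols and coordinates with GENCODE M21 on GRCm38 (54809 IDs, 99.9%), and promoters came from RefSeq (GRCm38.p6).

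The fits used edgeR 4.0.16 (R 4.3.3) with filterByExpr (minimum count 10), TMM scaling and the robust quasi-likelihood test on all 8 libraries with 4 residual degrees of freedom, two-sided, adjusted by Benjamini-Hochberg over 19101 genes. CPM are counts scaled to the TMM-adjusted library size and RPKM the same per kilobase of exon. Floors of 3 counts cover counting error only. Replicates differed beyond sampling noise in all groups (mean chi-square per gene at least 3.00). The members, lists and alternatives were chosen with earlier results of these data known. Full values were given for Trp53, Mdm2, Cdkn1a and each member called with a log2 change of at least 1, and for the 2 companion lists up to 5 called genes in each direction. Alternatives were RLE scaling, totals only, no filter, DESeq2 1.42.0, a replicate block, an added coefficient shared by the mitotic and asynchronous libraries numbered 1, leaving both of these out, each 2 groups alone, and each library left out. The tests were tested on simulated data.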

Additional observations from a re-analysis of the deposited data

How the results depend on the processing

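Over 2720 values of single members and alternatives, 2314 kept their direction and side of the threshold, 170 lost a call, 235 gained one and 1 reversed: Phlda3 in late G1 against asynchronous cells, with a log2 change of 0.13, had -0.16 and an adjusted p = 0.0436 in edgeR once the mitotic and asynchronous libraries numbered 1 were both left out. The cause was not tested. RLE scaling and totals only each left 1 member lower in late G1 against asynchronous cells, beside 25.2% and 25.5% of all genes. Without a filter, 10 were higher in early G1 against mitotic cells, beside 4.47% of all genes. DESeq2 gave 3 lower in mitotic against asynchronous cells (18% of all genes) and 7 higher in early G1 against mitotic cells (4.41%). It gave 1 higher in late G1 against early G1 (0.0381%) and 1 lower in late G1 against asynchronous cells (19.4%). Fits of 2 groups gave 7 higher and 1 lower for mitotic against asynchronous cells (8.55% and 12.7% of all genes). They gave 14 higher for early G1 against mitotic cells (9.47%). For late G1 they gave 18 higher and 1 lower against early G1 (3.5% and 4.94%) and 0 lower against asynchronous cells (19.8%).

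With an added coefficient shared by the mitotic and asynchronous libraries numbered 1, 15 were higher and 8 lower in mitotic against asynchronous cells (all genes called 57.7%), 18 and 4 in early G1 against mitotic (30.8%), 2 and 0 in late G1 against early G1 (0.0838%), 18 and 2 in late G1 against mitotic (34.5%) and 21 and 4 in late G1 against asynchronous cells (62.5%). Without these 2 libraries, counts were 16 higher and 5 lower in mitotic against asynchronous cells (59.3%), 20 and 5 in early G1 against mitotic (40.1%), 18 and 1 in late G1 against early G1 (7.7%), 20 and 6 in late G1 against mitotic (43.2%), and 23 and 6 in late G1 against asynchronous cells (69.3%). In the fits of all 8 libraries without the added coefficient the shares were 40.7%, 4.63%, 0%, 9.48% and 48.7%. Leaving out 1 library gave 8 to 14 higher and 1 to 9 lower in mitotic against asynchronous cells, 0 to 16 and 0 to 2 in early G1 against mitotic, 0 to 3 and 0 to 0 in late G1 against early G1, 2 to 20 and 0 to 1 in late G1 against mitotic, 15 to 22 and 0 to 4 in late G1 against asynchronous cells, and 17 to 31 over any state. These fits tested other numbers of genes, and a group left with 1 library was assumed to vary like the rest. The counts of members called and the shares of all genes called both moved between these fits.

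The groups share 2 replicate numbers, which the labels do not tie to a clone. Replicate deviations of 19101 genes had a correlation of 0.463 between mitotic and asynchronous libraries and of -0.14 to 0.02 between the other pairs of groups. With the replicate number as a block, 12 members were higher and 6 lower in mitotic against asynchronous cells (18.6% and 22.7% of all genes). Early G1 against mitotic cells gave 4 and 1 (2.98% and 1.22%), and late G1 against early G1 gave 0 and 0 (0% and 0%). Late G1 gave 14 and 1 against mitotic (5.37% and 3.76%) and 18 and 2 against asynchronous cells (23.5% and 25.9%). Over any state 23 were called (49.9%). Depth limits Fas most, at under 3 CPM in every library.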

Other observations

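Processed pseudogenes of 3 members had reads of their own in the deposited counts. Trp53-ps stood at 46.8 and 36.0 CPM in mitotic, 36.1 and 35.8 CPM in early G1, 38.8 and 37.6 CPM in late G1 and 14.2 and 10.0 CPM in asynchronous libraries, so its order of states was that of Trp53. Mdm4-ps stood at 0.281 to 0.849 CPM. The asynchronous replicates stood apart for members such as Slc19a2 (65.7 and 36.0 CPM), Polk (33.9 and 17.6 CPM), Trp53inp1 (258 and 143 CPM) and Mdm4 (438 and 261 CPM), all higher in replicate 1, and Cdkn1a (173 and 273 CPM), higher in replicate 2.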
